A study of Mus musculus with 9 samples.

Results

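The genes described here are 10 genes of the actin cytoskeleton in meningeal lymphatic endothelial cells (MLECs) of the mouse, out of 24321 genes in the expression table. They are the thymosins Tmsb4x and Tmsb10, the cytoplasmic actins Actb and Actg1, and Cfl1, Pfn1, Arpc2, Myl6, Vim and Cnn2, and each symbol had its own row in the table. Tmsb4x was selected on its FPKM, which was the highest of all genes in several tumor libraries. The other 9 genes were chosen by name as abundant regulators of actin, with earlier results of these data known. The level of Tmsb4x is therefore given as a description without a test.

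MLECs line the lymphatic vessels of the dura that drain fluid and immune cells toward the cervical lymph nodes. They were sorted from meninges of male mice labelled 10 weeks old after injection of PBS (control), of GL261, a mouse glioma line, or of B16, a mouse melanoma line, and each group had 3 libraries of the 9. Each library held 10 sorted cells, and each replicate was pooled from 6 mice. The labels describe a dose of 100000 tumor cells into the cisterna magna and collection after about 3 weeks for GL261 and 2 weeks for B16. The methods of the study describe a subdural injection with other cell numbers and collection after 2 to 3 weeks. Its results text gives 2 weeks for both tumors. By the labels, tumor line and time after injection cannot be told apart wherever GL261 and B16 are compared below. The labels and the methods of the study name CD31, CD45 and LYVE-1 as stains, and its results text names PDPN as part of the gate. RNA was amplified by Smart-seq2, and expression was deposited as FPKM, a count of fragments scaled by the length of the transcript and the number of mapped fragments.

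Actin cycles between single molecules (G-actin) and filaments (F-actin). Thymosins hold G-actin in reserve, profilin hands it to growing filament ends, the Arp2/3 complex starts branches, and cofilin cuts old filaments. Nonmuscle myosin pulls on filaments, and vimentin forms a separate, tougher filament network. In lymphatic endothelium this machinery shapes the junctions and the sprouting edge of the vessel.

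The coding sequences of both thymosins are printed because the pair encodes proteins of the same kind with the same role and because their levels moved differently between groups. They come from the GENCODE M1 transcripts, whose coordinates are those of mm9, and capitals mark the bases that differ between them.
Tmsb4x: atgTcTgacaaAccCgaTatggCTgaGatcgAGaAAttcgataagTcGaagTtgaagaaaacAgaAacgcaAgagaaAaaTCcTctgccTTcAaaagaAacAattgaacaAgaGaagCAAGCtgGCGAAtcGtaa
Tmsb10: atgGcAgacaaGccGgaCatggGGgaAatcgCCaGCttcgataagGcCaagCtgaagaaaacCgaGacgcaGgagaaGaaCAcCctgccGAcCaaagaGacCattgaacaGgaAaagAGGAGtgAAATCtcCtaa
Both sequences have 135 bases including the stop codon, of which 95 are identical and 40 differ (70.4% identity). The longest identical stretch is 10 bases, against reads of 150 bases, which are longer than either coding sequence. The coding sequences of Actb and Actg1 have 1128 bases each and are 88.7% identical, with a longest shared stretch of 62 bases, and no window of 150 bases occurs in both.

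Copies elsewhere in the genome were a separate matter. At 95% identity or more over at least 0.9 of the coding sequence, mm9 holds 5 further copies of Tmsb10, 4 of Actg1, 4 of Myl6 and 1 of Cfl1, and 0 of the other 6 genes. How reads that fit several places were shared is not given in the sources used here, so the values of Tmsb10, Actg1, Myl6 and Cfl1 are uncertain to that extent. Most of these copies had no row of their own, and the 3 rows that lie over a copy were 9330111N05Rik, listed at 0 in all 9 libraries, Lrba at 0 to 1.89 FPKM and Ctcf at 2.90 to 22.4 FPKM.

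In mm9, Tmsb4x lies on chromosome X from 163645025 to 163647247 (minus strand) and Tmsb10 on chromosome 6 from 72907341 to 72908742 (minus strand). Actb lies on chromosome 5 from 143664794 to 143668433 (minus strand), and Actg1 lies on chromosome 11 from 120207004 to 120209856 (minus strand). Cfl1 is on chromosome 19 from 5490485 to 5494029 (plus strand), Pfn1 on chromosome 11 from 70465352 to 70468146 (minus strand) and Arpc2 on chromosome 1 from 74283071 to 74314783 (plus strand). Myl6 is on chromosome 10 from 127927916 to 127930931 (minus strand), Cnn2 on chromosome 10 from 79451329 to 79458807 (plus strand) and Vim on chromosome 2 from 13495554 to 13504453 (plus strand). All 10 are protein-coding genes in the GENCODE M1 annotation.

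The FPKM of a library summed to 652636 to 693117 (control), 768691 to 888312 (GL261) and 701951 to 764489 (B16), and 7303 to 8688, 9456 to 10852 and 8736 to 9950 genes had an FPKM above 0 in the same order. The table holds no read counts, so the counting error of a value is unknown. By the supplementary table of the study, all control libraries were shallower than all tumor-associated ones, so depth and tumor status cannot be told apart. Rn45s, the ribosomal RNA precursor, was at 5697 to 7453 FPKM (control), 18940.1 to 19953 (GL261) and 12259 to 16056 (B16). Rnu12, a small nuclear RNA, took 7.41% of all FPKM in GL261 replicate 2 and 11.1% in B16 replicate 1 and was listed at 0 in the other 7 libraries. Control replicate 1 stood apart in smooth muscle transcripts, as described below with the muscle actins.

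The lymphatic label was held against its markers. Prox1, Flt4, Lyve1 and Pdpn were above 0 FPKM in all 9 libraries, but their levels differed between groups. Prox1 had at least 20.9 FPKM in each control library and at most 16.5 FPKM in each tumor-associated library, where its median was 2.74 FPKM. The tumor-associated mean was 0.153 of the control mean for Prox1, 0.298 for Flt4, 0.443 for Pdpn and 0.837 for Lyve1. Values above 0 alone therefore do not settle the identity of the tumor-associated cells. The sum of the 7 lymphatic markers was 2567 to 2961 FPKM (control), 797 to 2292 (GL261) and 913 to 2511 (B16), and 3 of the 6 tested (Flt4, Reln and Mmrn1) were called lower in tumor-associated MLECs. The 7 markers of blood endothelium summed to 843 to 1577, 5699 to 8832 and 4363 to 7328 FPKM, and 6 of them were called higher. Plvap made up most of the control sums, at 686 to 1390 FPKM. Ly6c1 was listed at 0 in control and at 393 to 4375 FPKM in tumor-associated libraries. Flt1, Cd34 and Esam had at most 0.856, 14.3 and 34.1 FPKM in control and at least 49.0, 153 and 335 in tumor-associated libraries. Sox17 overlapped, at 0.949 to 8.18 and 4.15 to 13.7 FPKM. Ptprc, which defines leukocytes, was listed at 0 in all libraries, as were Des of mural cells, Lum of fibroblasts, Mlana, Tyr, Tyrp1 and Mitf of melanocytic cells, and Gfap, Sox2 and Ptprz1 of glial cells. Other markers of these lists were present. The 7 mural markers summed to 122 to 203 FPKM (control), 15.4 to 68.1 (GL261) and 101 to 131 (B16), of which Kcnj8 reached 195 FPKM. The 6 fibroblast markers summed to 16.2 to 49.0, 0.146 to 2.74 and 0 to 3.85 FPKM, and Dcn among them was called lower. S100b of the glial list had 25.3 to 37.0 FPKM in B16 and at most 3.00 FPKM in the other libraries. Of the leukocyte list, Fcer1g reached 390.2 and Lyz2 324 FPKM. In a list of 5 erythroid and platelet markers, Alas2 and Ppbp were listed at 0 in all libraries. Pf4 of that list was at 0 in control, at 12.7, 0 and 187 FPKM in GL261 and at 17.0, 54.2 and 35.9 FPKM in B16 libraries. Pf4 was not called, and the part of platelet RNA in the results was not tested. The blood endothelial markers, Dcn and Rn45s moved with the same contrast as the genes below, and their part in each result was not tested. In such pools of cells, fewer cells of a type and less RNA per cell cannot be told apart.

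The 10 genes together took 4.77% to 6.24% of all FPKM (control), 5.96% to 7.57% (GL261) and 4.38% to 6.56% (B16). The low ends of both tumor groups came from the libraries with Rnu12. Without Rnu12 the share was 6.44% in GL261 replicate 2 and 4.93% in B16 replicate 1. Among all genes of a library, ordered by FPKM, Tmsb4x stood between rank 1 and rank 4, Tmsb10 between 2 and 10, Actb between 8 and 24, Myl6 between 18 and 44, Cfl1 between 32 and 64 and Pfn1 between 34 and 92. Actg1 (82 to 174), Vim (161 to 249) and Arpc2 (274 to 461) followed, and Cnn2 ranged from rank 529 to rank 5896. FPKM is scaled by length, yet these ranks give only a rough order between genes. The transcripts run from 570 (Tmsb10) to 2460 bases (Cnn2), and effects of length and amplification on the levels were not tested. Values within a group were close for most of the 10 genes. The pooled SD within groups was 0.20 (Actb) to 0.36 (Pfn1) on the log2(FPKM + 1) scale for all except Cnn2 (1.67). The median over the genes tested was 1.07.

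**Figure D1:**
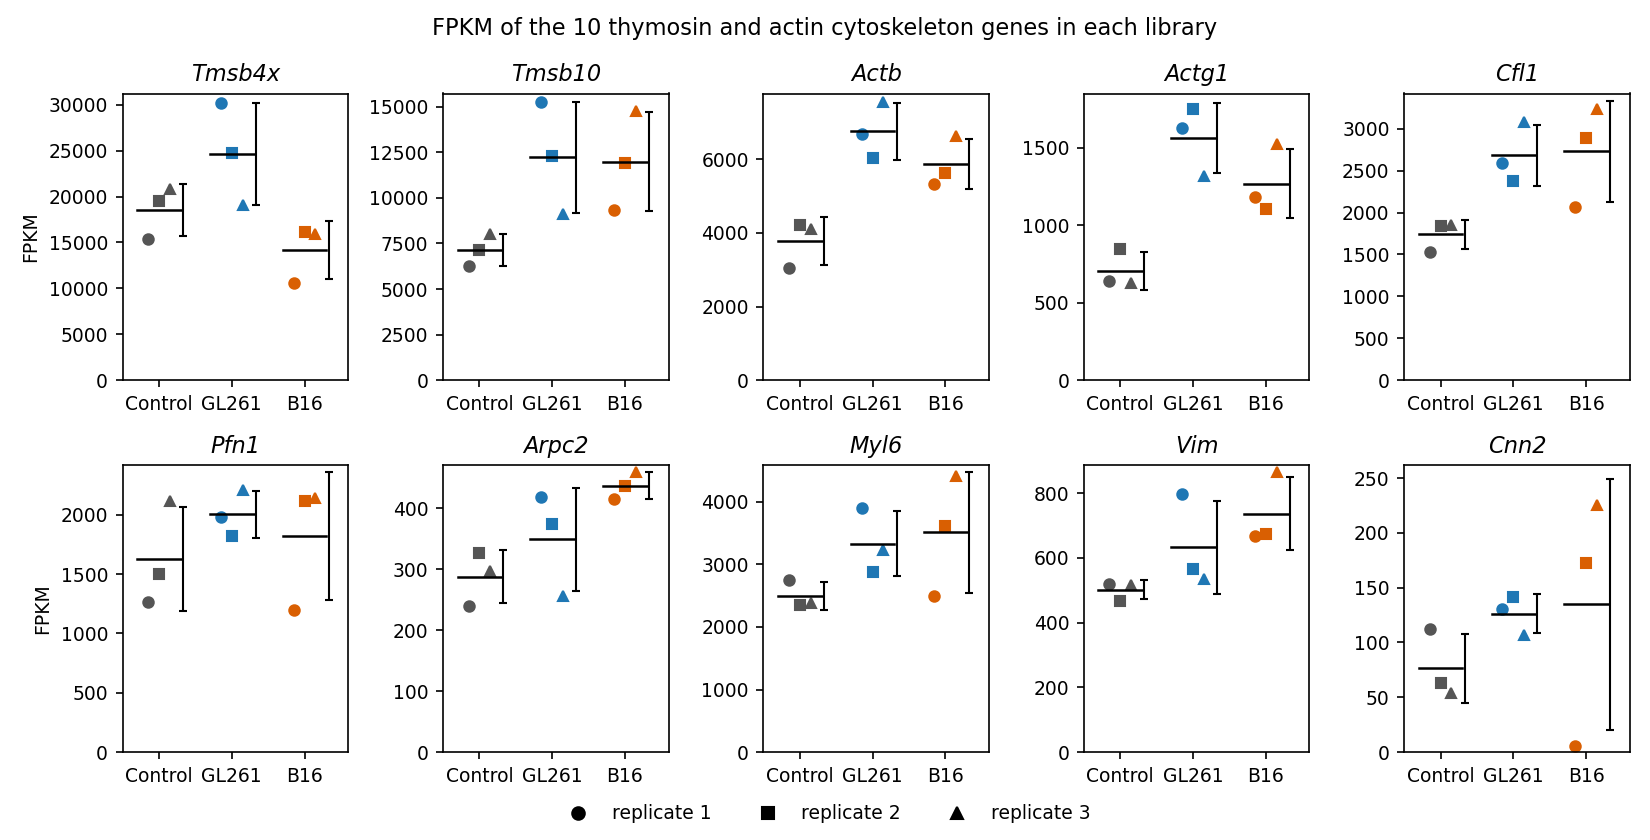
FPKM (y axis, linear, from 0) of the 10 genes in each of the 3 control, 3 GL261 and 3 B16 libraries (x axis). Symbols mark replicates 1 to 3, lines the group means and bars the SD. Actb, Actg1, Tmsb10, Cfl1 and Vim have each tumor-associated library above each control library, Tmsb4x does not, and Cnn2 of B16 replicate 1 lies far below the other libraries, at 5.69 FPKM.

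Tmsb4x encodes thymosin beta 4, the main G-actin reserve protein of many cells. In control libraries it had 15368, 19519.7 and 20789 FPKM. The GL261 libraries had 30158, 24786 and 19031 FPKM and the B16 libraries 10576.5, 16119.5 and 15930.5 FPKM. It was the highest of all genes in GL261 replicate 1 and in B16 replicates 2 and 3, rank 2 in the control libraries and the other GL261 libraries, and rank 4 in B16 replicate 1.

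The rank of Tmsb4x is also set by the genes above it. In control MLECs that gene was Gm1987, a copy of the Ccl21 chemokine genes, with 33261 to 37115 FPKM, and it had 1006 to 11435 FPKM in tumor-associated MLECs. Above Tmsb4x stood Rnu12 in GL261 replicate 2 (65812 FPKM) and Rn45s in GL261 replicate 3 (19622 FPKM). In B16 replicate 1 these were Rnu12, Rn45s and Gm1987. The first place in B16 replicate 2 rested on 16119.5 FPKM against 16055.8 for Rn45s. The mean of Tmsb4x was 18559 ± 2835 FPKM for control, 24658 ± 5565 for GL261 and 14209 ± 3147 for B16 MLECs (SD, n = 3 each). The control libraries overlapped with both tumor groups, while each GL261 library was above each B16 library. On the log2(FPKM + 1) scale the differences were 0.40 for GL261 against control and -0.40 for B16 against control, and the latter was 0.20 after quantile normalization. The difference for GL261 was -0.47 with aligned reads as a covariate, -0.012 after rescaling over coding genes and 0.087 after rescaling to the same sum. Tumor against control was -0.0016 and ran from -0.97 (the covariate) to 0.26 (quantile normalization).

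Tmsb10 encodes thymosin beta 10, a sister G-actin reserve protein. It had 6265, 7166 and 7998 FPKM in control, 15239.5, 12270.6 and 9127 in GL261 and 9308, 11925 and 14739.8 in B16 libraries. All 6 tumor-associated values exceeded the control values. The mean rose 1.67-fold on the log2(FPKM + 1) scale, a difference of 0.74 (standard error 0.18, limma, adjusted p = 0.0342). The adjustment is that of Benjamini and Hochberg over the 9955 genes that reached 1 FPKM in 3 or more libraries, here and throughout, and genes are called at an adjusted p under 0.05. The exact permutation test over the 84 divisions of the libraries gave p = 0.0119, the smallest it can give. Permutation p-values are not adjusted over genes, here and throughout. Against control alone, GL261 differed by 0.75 (limma, adjusted p = 0.0711) and B16 by 0.73 (limma, adjusted p = 0.0933). The call held in 4 of 18 alternative settings, with a positive difference in all 18. With 1 library left out it held without B16 replicate 1 and without GL261 replicate 3, and with any of the other 7 left out limma's adjusted p was 0.0627 to 0.142, the highest without Control replicate 1 (difference 0.65). After quantile normalization, B16 passed the threshold (0.83, limma, adjusted p = 0.0482), and without GL261 replicate 3 so did GL261 (0.94, limma, adjusted p = 0.0407).

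The balance between both thymosins was read within each library, where scaling between libraries has no part. The ratio of Tmsb10 to Tmsb4x FPKM was 0.408, 0.367 and 0.385 in control, 0.505, 0.495 and 0.480 in GL261 and 0.880, 0.740 and 0.925 in B16 libraries. The 3 groups did not overlap: control was lowest (mean 0.386 ± 0.0203), GL261 followed (0.493 ± 0.0129) and B16 was highest (0.848 ± 0.0967, SD, n = 3 each). These ratios are a description, because Tmsb4x was taken up for its level in these libraries. Uncertain reads from the copies of Tmsb10 would enter its numerator.

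**Figure D2:**
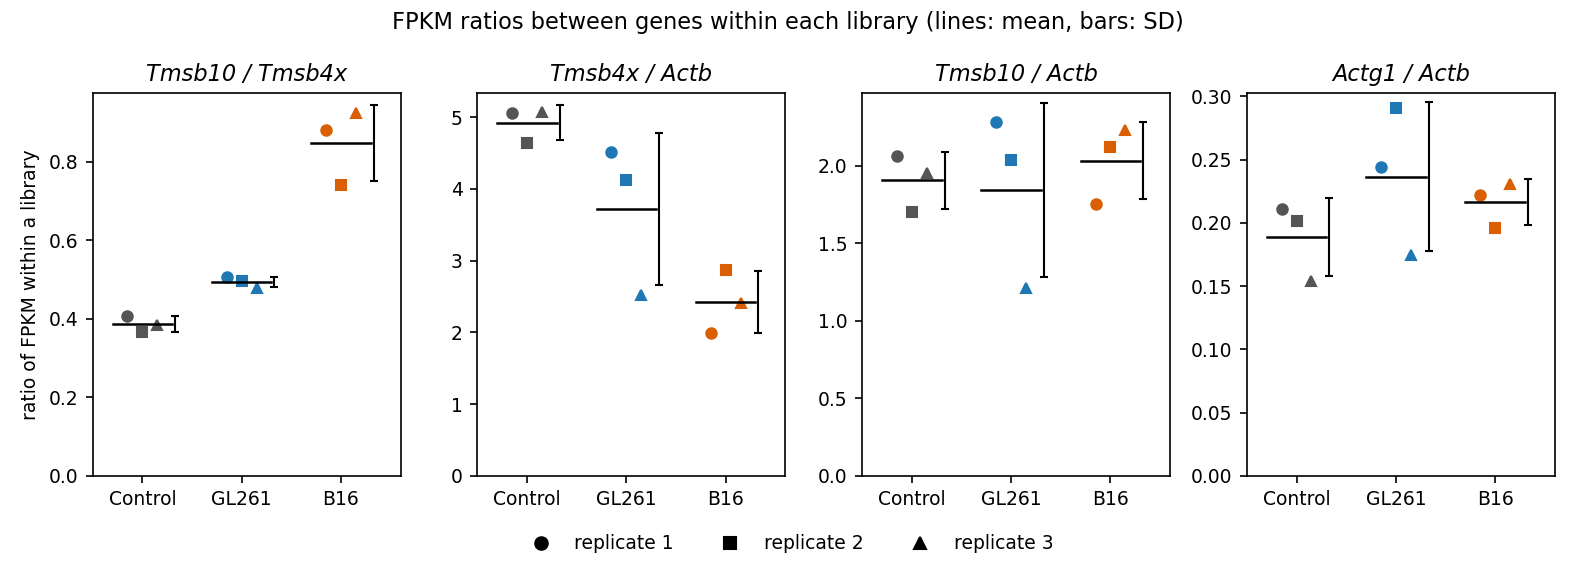
Ratios of FPKM between pairs of genes within each library (y axis, linear, from 0, no unit) for control, GL261 and B16 MLECs (x axis). Symbols mark replicates, lines the means and bars the SD. Tmsb10 to Tmsb4x separates the 3 groups, from 0.367 to 0.925, and Tmsb4x to Actb is lower in each tumor-associated library (1.99 to 4.51) than in each control library (4.64 to 5.07). Tmsb10 to Actb and Actg1 to Actb overlap between groups.

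Set against Actb, Tmsb4x had ratios of 5.06, 4.64 and 5.07 in control, 4.51, 4.12 and 2.52 in GL261 and 1.99, 2.86 and 2.41 in B16 libraries. Each tumor-associated ratio was below each control ratio. The ratio of Tmsb10 to Actb was 1.70 to 2.06 in control and 1.21 to 2.28 in tumor-associated libraries and overlapped. Within these libraries, more Actb transcript was listed per Tmsb4x transcript in tumor-associated MLECs, and the ratio to Tmsb10 showed no separation.

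Actb encodes beta-actin, the main cytoplasmic actin. Its FPKM were 3036, 4207 and 4102 in control, 6681, 6021 and 7551 in GL261 and 5316, 5633 and 6613 in B16 libraries. No tumor-associated library reached down to a control library. Actb rose 1.67-fold on the log2(FPKM + 1) scale (difference 0.74, standard error 0.16, limma, adjusted p = 0.0181; exact permutation p = 0.0119). GL261 differed from control by 0.84 (limma, adjusted p = 0.0150) and passed the threshold, and B16 by 0.64 (limma, adjusted p = 0.0696) and did not. The difference between the tumors, 0.21, did not pass it either (limma, adjusted p = 1). Without Control replicate 1, Actb differed between tumor and control by 0.59 (limma, adjusted p = 0.105). The call for GL261 was lost without Control replicate 1, GL261 replicate 1 or GL261 replicate 3 (limma, adjusted p = 0.0525, 0.0718 and 0.0713), and B16 passed after quantile normalization (0.82, limma, adjusted p = 0.0151).

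Actg1 encodes gamma-actin, the other cytoplasmic actin. It had 642, 847 and 632 FPKM in control, 1629.7, 1753 and 1317 in GL261 and 1181, 1104 and 1526 in B16 libraries. All tumor-associated values lay above all control values. Actg1 rose by 1.00 on the log2(FPKM + 1) scale (2.00-fold, standard error 0.21, limma, adjusted p = 0.0173), the largest difference among the 9 genes tested. GL261 differed from control by 1.15 (limma, adjusted p = 0.0138) and B16 by 0.84 (limma, adjusted p = 0.0727). Leaving out Control replicate 1 gave 0.93 (limma, adjusted p = 0.0724) and leaving out Control replicate 3 gave 0.92 (limma, adjusted p = 0.0660). The call for GL261 was lost without GL261 replicate 1 or 2 (limma, adjusted p = 0.0738 and 0.0871).

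Whether both actins kept their proportion was tested within libraries. The ratio of Actg1 to Actb was 0.154 to 0.211 in control and 0.174 to 0.291 in tumor-associated libraries and overlapped. The ratio differed 1.19-fold (log2 difference 0.26), and the exact permutation test, two-sided, gave p = 0.214. A change in the proportion of the actins was therefore not detected with 9 libraries.

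Cfl1 encodes cofilin, which severs filaments. It had 1533, 1835 and 1847 FPKM in control, 2589.7, 2375 and 3080.5 in GL261 and 2064, 2893 and 3229.9 in B16 libraries. Control and tumor-associated libraries did not overlap, with control lower. The difference of 0.63 on the log2(FPKM + 1) scale (1.54-fold, standard error 0.18) missed the threshold (limma, adjusted p = 0.0707). The exact permutation test, which is not adjusted over genes, gave its smallest p of 0.0119. Of all genes tested, 6.08% were likewise higher without overlap. Without B16 replicate 1 the difference of Cfl1 was 0.70 (limma, adjusted p = 0.0307) and passed. The ratio of Cfl1 to Actb was 0.436 to 0.505 (control), 0.388 to 0.408 (GL261) and 0.388 to 0.513 (B16), so that GL261 lay below control and B16 overlapped it.

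Pfn1 encodes profilin, which feeds G-actin to filament ends. Its FPKM were 1268, 1498 and 2112 in control, 1981, 1818 and 2210.1 in GL261 and 1198, 2118 and 2144 in B16 libraries, with overlap throughout. The lowest of all 9 values was that of B16 replicate 1, and the highest was that of GL261 replicate 3. The difference between tumor and control was 0.24 (standard error 0.23, limma, adjusted p = 0.613), and it was -0.20 after quantile normalization, -0.07 after rescaling over coding genes and -0.04 with aligned reads as a covariate. Against Actb, Pfn1 was at 0.356 to 0.515 (control), 0.293 to 0.302 (GL261) and 0.225 to 0.376 (B16), so that B16 overlapped control.

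Arpc2 encodes a core subunit of the Arp2/3 complex. It had 240.4, 326 and 297 FPKM in control, 419, 374 and 256 in GL261 and 415, 437 and 459.9 in B16 libraries. B16 lay above control in each library, whereas GL261 replicate 3 fell among the control values. The tumor-associated libraries differed from control by 0.44 (standard error 0.25, limma, adjusted p = 0.379), B16 by 0.61 (limma, adjusted p = 0.321) and GL261 by 0.26 (limma, adjusted p = 0.686), and the value for GL261 was below 0 under all 3 rescalings between libraries, from -0.15 to -0.0033. The other subunits were read beside it: 9 of the 10 genes of the complex were tested, and the differences ran from -0.26 to 1.27. Of these, 7 had a positive difference, against 57.2% of all genes tested. In the complex 0 were called, against 2.9% of all genes called higher and 1.02% called lower.

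Myl6 encodes the essential light chain of nonmuscle myosin. It had 2758, 2343 and 2387 FPKM in control, 3894, 2879 and 3225 in GL261 and 2497, 3614 and 4419 in B16 libraries. GL261 lay above control, and B16 replicate 1 fell between control replicates. Tumor and control differed by 0.43 (standard error 0.19, limma, adjusted p = 0.227), which was -0.0052 after quantile normalization.

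Vim encodes vimentin, the intermediate filament protein of endothelial and mesenchymal cells. Its FPKM were 519.9, 468 and 517 in control, 798, 567 and 534 in GL261 and 668, 675 and 866 in B16 libraries. The tumor-associated libraries were all above control, the nearest by 534 against 519.9 FPKM. The difference of 0.43 did not pass the threshold (standard error 0.22, limma, adjusted p = 0.311; exact permutation p = 0.0357).

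Cnn2 encodes calponin 2, which binds and steadies filaments. It had 113, 62.9 and 53.9 FPKM in control, 130.4, 142 and 107 in GL261 and 5.69, 173 and 226 in B16 libraries. The highest value was 39.7 times the lowest, and both lie in B16. The difference of 0.29 between tumor and control (standard error 0.89, limma, adjusted p = 0.901) was 1.04 without B16 replicate 1, and it was below 0 with aligned reads as a covariate (-2.59) and after rescaling over coding genes (-0.02).

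Read together, 3 of the 9 genes tested were called higher in tumor-associated MLECs, against 2.9% of all genes tested, and 0 were called lower, against 1.02%. At an unadjusted p under 0.05, 5 of the 9 and 19% of all genes passed. Their groups did not overlap in 5 of 9, against 6.08% of all genes in that direction. All of the 9 except Cnn2 had a lower spread within groups than the median gene. These shares therefore set genes of low spread beside mostly noisier ones. The 9 genes were also chosen as abundant and with earlier results of these data known, so they are not an independent pick. By size, the 9 differences stood only at percentile 51.4 (Pfn1) to 74.7 (Actg1) among all genes tested. The 9 differences were all positive, with a median of 0.44, while the median over all genes tested was 0.20 and 57.2% of these were positive. That median of all genes was 0.05 after rescaling each library to the same sum and -0.04 after quantile normalization, and in these settings the median of the 9 genes was 0.21 both times, with 1 gene called (Actg1 and Actb, respectively). Without Control replicate 1, 0 of the 9 were called, while 259 genes (2.65%) were called among all tested, and without B16 replicate 1 there were 4 (Actb, Actg1, Cfl1 and Tmsb10). With aligned reads as a covariate, limma called 0 of the 9 and 9 of all genes, and without a trend in eBayes it called 0 of the 9 and 328 of all genes.

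For GL261 against control, 2 of 9 genes (Actb and Actg1) were called higher, against 2.58% of all genes, 0 were called lower, against 0.904%, and 6 did not overlap with control, against 13.7%. For B16 against control, limma called 0 of 9 at an adjusted p under 0.05, against 1.61% of all genes called higher and 0.502% called lower, and 6 did not overlap, against 10.2%. At an unadjusted p under 0.05, 6 of the 9 and 15% of all genes passed. Both comparisons share the control libraries. Between GL261 and B16, limma called 0 of 9 genes and 0.01% of all genes (1 gene), and at an unadjusted p under 0.05 it called 0 of 9 and 5.5% of all genes. The 9 genes overlapped between the tumors, whereas 7.13% of all genes were higher and 6.66% lower in GL261 without overlap. Their differences ran from -0.35 (Arpc2) to 0.98 (Cnn2), and the limma adjusted p was 1 for each.

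**Figure D3:**
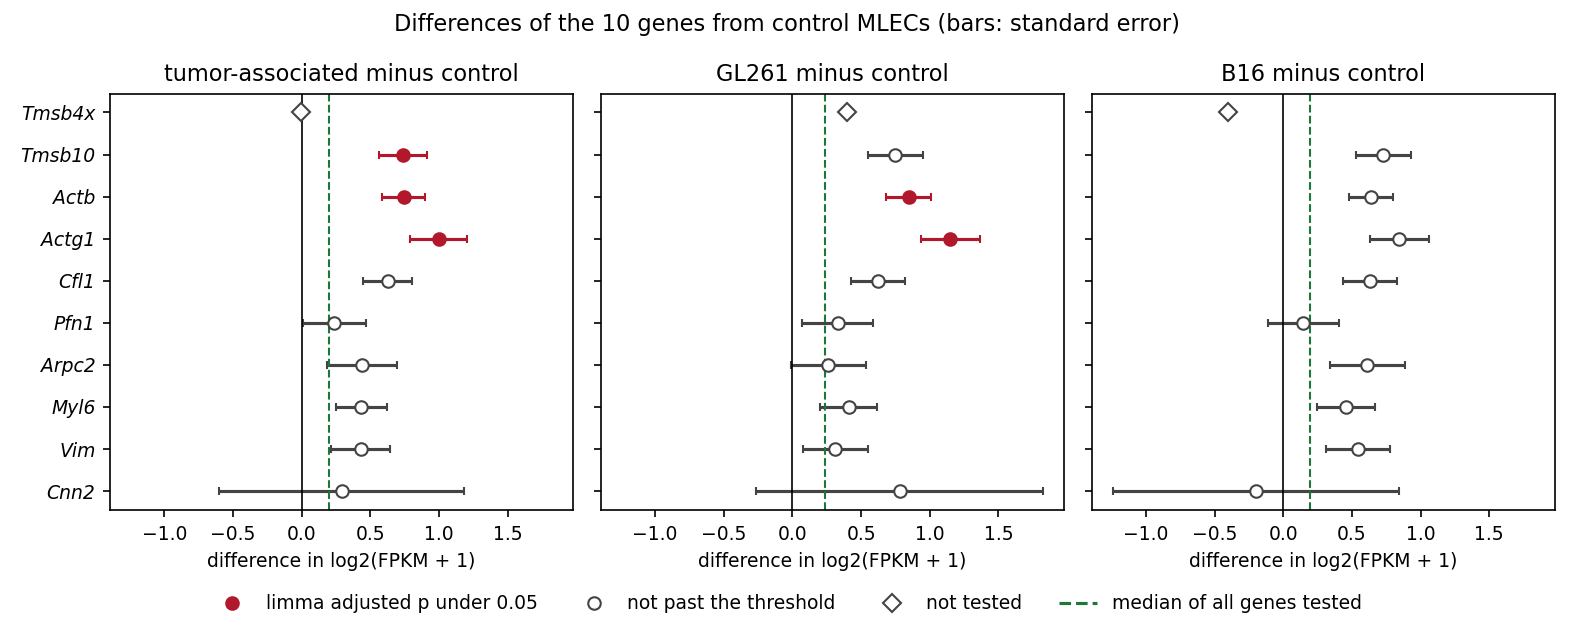
Difference in log2(FPKM + 1) from control (x axis) of each of the 10 genes (y axis) for tumor-associated, GL261 and B16 MLECs. Bars are standard errors, filled red points passed limma's adjusted threshold, the open diamond is Tmsb4x, which was not tested, and the dashed line is the median of all genes tested. Actb and Actg1 passed in the first 2 panels and Tmsb10 in the first.

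The rest of the actin machinery was taken from 9 lists by role, with 119 genes besides the 10, of which 91 had enough signal to be tested and 13 were listed at 0 in all libraries. In tumor-associated MLECs 5 of the 91 were called higher (5.49%, against 2.9% of all genes tested) and 0 lower (against 1.02%). The split was 3 higher and 2 lower after rescaling over coding genes, and 3 higher and 1 lower after quantile normalization or without a trend in eBayes. A positive difference was found for 54 of the 91, against 57.2% of all genes tested, with a median of 0.19 beside 0.20 over all genes. The 5 called genes were Capg, Lcp1, Tagln2, Rhoc and Msn. In GL261 4 of the 91 (4.40%, against 2.58% of all genes) and in B16 4 (4.40%, against 1.61%) were called higher. Between the tumors limma called 0, and 4 of the 91 passed an unadjusted p under 0.05, against 5.5% of all genes.

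By role, the G-actin binding genes besides the 3 named had 0 of 4 tested genes called, all 4 with positive differences and a median of 1.40. Among them Twf2, a twinfilin, had 1.35 to 22.9 FPKM (control) and 26.3 to 104.5 FPKM (tumor-associated) (difference 2.48, limma, adjusted p = 0.0766). It was singled out after its values were seen. The severing genes had 0 of 11 called and a median of 0.11, and the Arp2/3 subunits besides Arpc2 had 0 of 8 and 0.31. The nucleation, formin and capping genes had 1 of 20 called and a median of 0.11. The myosin II and contractility genes had 1 of 13 called and a median of -0.13. The calponin, tropomyosin and crosslinker genes had 3 of 21 called and a median of 0.16. The intermediate filament genes had 0 of 6 called (median 0.80), and the SRF-linked and adhesion genes 0 of 8 (median 0.74).

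**Figure D4:**
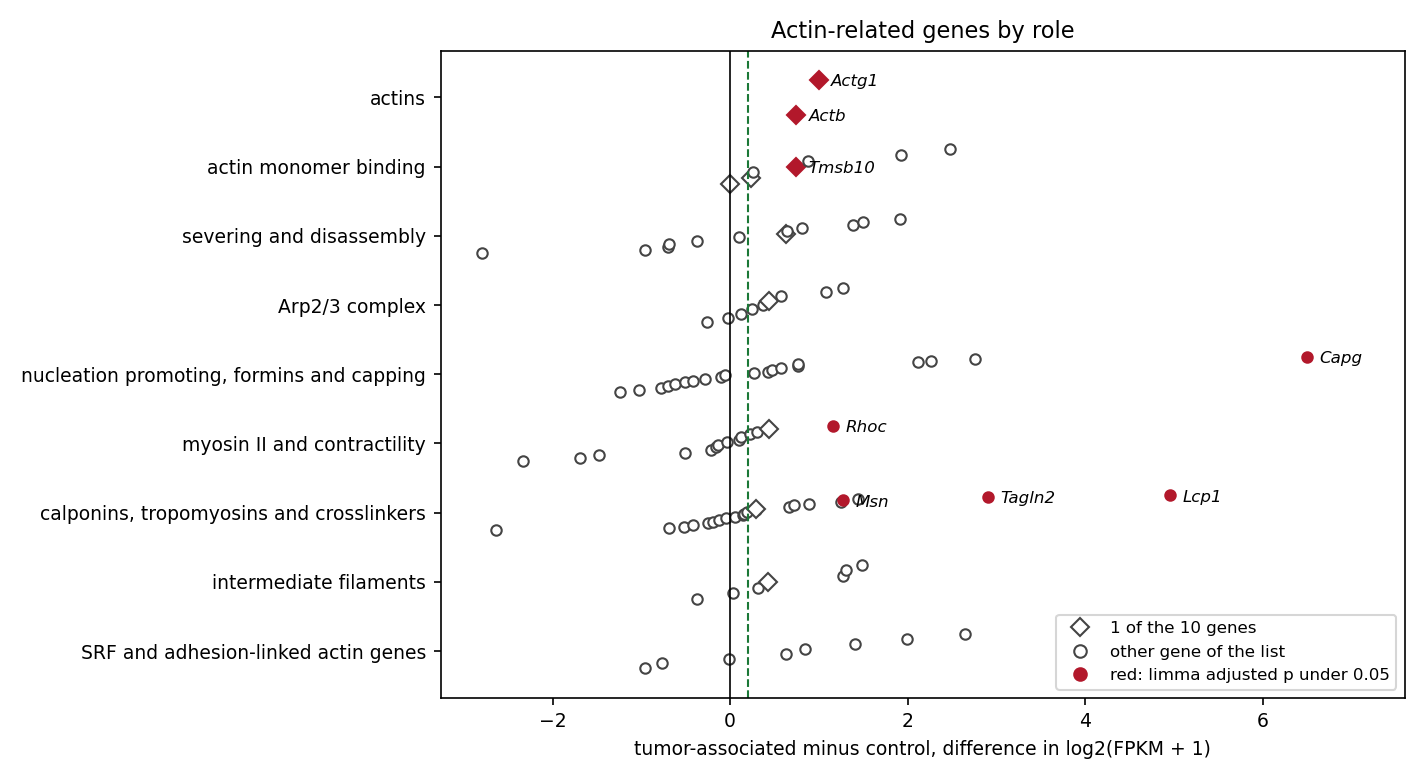
Tumor-associated minus control difference in log2(FPKM + 1) (x axis) for the tested genes of each actin list (y axis). Diamonds are the 10 genes, circles the other genes of a list, red marks limma's adjusted p under 0.05, and the dashed line is the median of all genes tested, 0.20. Red points lie to the right of 0, from 0.74 (Tmsb10 and Actb) to 6.50 (Capg), and most lists scatter to both sides.

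Capg (chromosome 6 from 72494385 to 72512977) encodes a gelsolin-family protein that caps filament ends. It had 0, 22.6 and 0.818 FPKM in control, 307, 348 and 279 in GL261 and 282, 224 and 523 in B16 libraries. The tumor-associated libraries were all far above control, with a difference of 6.50 (standard error 0.76, limma, adjusted p = 0.000436). GL261 and B16 gave 6.47 and 6.52.

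Lcp1 (chromosome 14 from 75530908 to 75630649) encodes L-plastin, a filament bundler best known from leukocytes. It was listed at 0 in the 3 control libraries, at 35.5, 40.2 and 33.1 FPKM in GL261 and at 23.6, 19.5 and 34.1 FPKM in B16 libraries (limma, adjusted p = 0.000385). The 7 leukocyte markers summed to 201 to 579 FPKM (control), 35.1 to 484 (GL261) and 28.9 to 293 (B16), with Ptprc at 0 in all 9, and 0 of the 3 tested were called. The part of leukocyte RNA in the values of Lcp1 was not tested.

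Tagln2 (chromosome 1 from 174430178 to 174437511) encodes transgelin 2, a relative of calponin. It had 66.6, 89.2 and 62.0 FPKM in control, 621, 443 and 593 in GL261 and 325, 745 and 656 in B16 libraries. It rose 7.50-fold (difference 2.91, standard error 0.30, limma, adjusted p = 0.00017). Capg, Lcp1 and Tagln2 kept the threshold in 17 of 18 alternatives each, the exception being aligned reads as a covariate.

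Rhoc (chromosome 3 from 104591929 to 104597377), of the contractility list, had 347, 305 and 217 FPKM in control, 606, 539.9 and 409.6 in GL261 and 772, 916 and 696 in B16 libraries. The 3 groups were ordered control, GL261, B16 without overlap. The difference was 1.16 (standard error 0.28, limma, adjusted p = 0.0362) and lost the threshold in 15 of 18 alternatives. GL261 minus B16 was -0.62 (limma, adjusted p = 0.867). Msn, which encodes moesin, a linker of filaments to the membrane, had 66.1 to 99.4 FPKM (control) and 126 to 217 FPKM (tumor-associated), a difference of 1.27 (limma, adjusted p = 0.0345). Msn lost the threshold in 13 of 18 alternatives and was named after its values were seen. With 1 library left out, Rhoc passed only without GL261 replicate 3 and Msn only without B16 replicate 1 or Control replicate 3, and otherwise the adjusted p was up to 0.123 for Rhoc (without Control replicate 3) and up to 0.0871 for Msn (without Control replicate 1, limma).

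**Figure D5:**
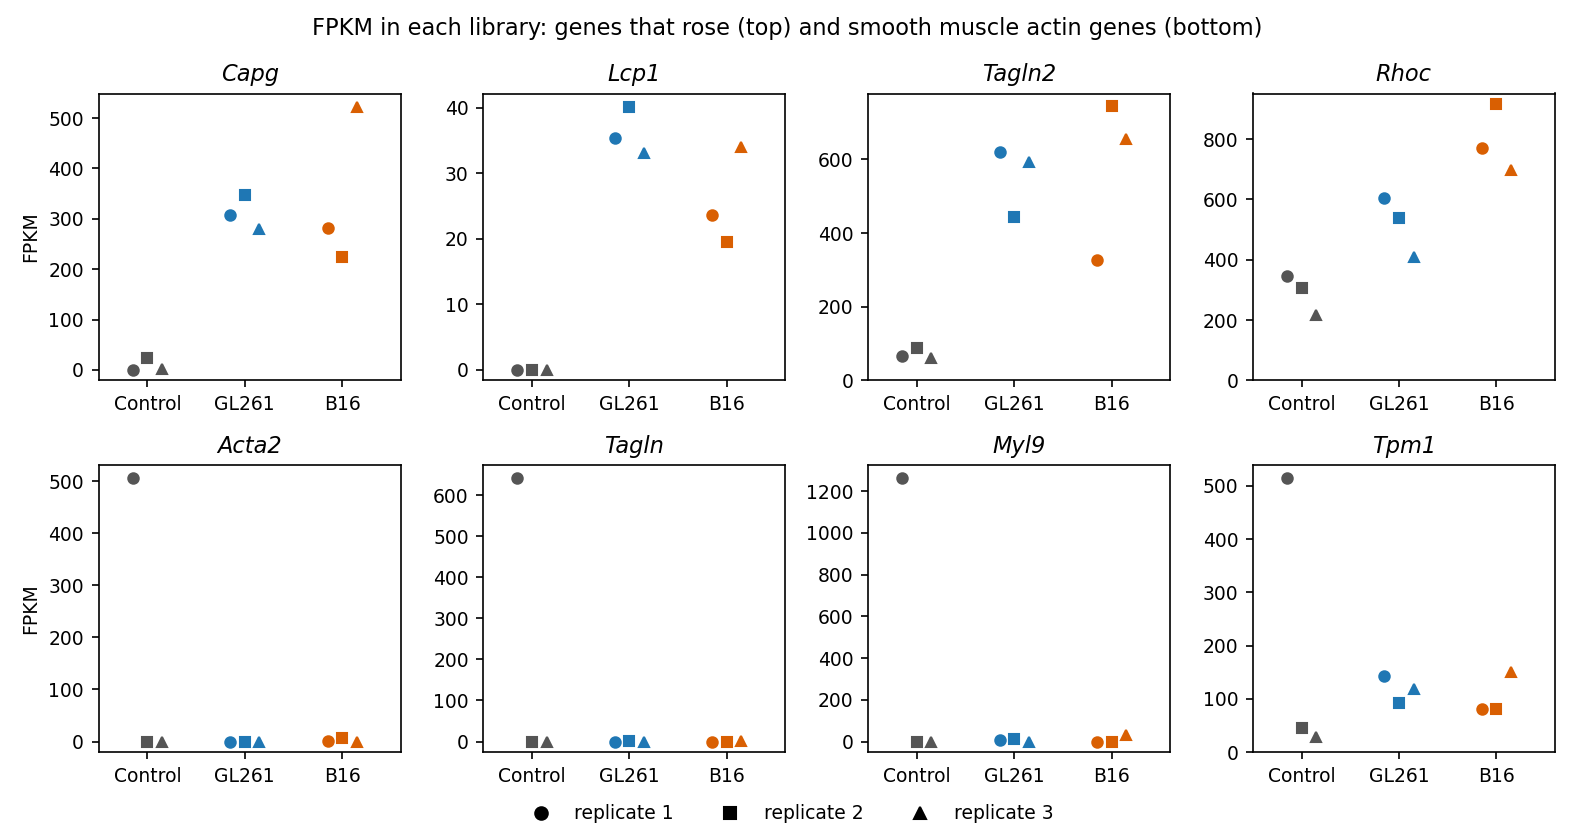
FPKM (y axis, linear) in each library of the 3 groups (x axis), with symbols for replicates. The top row shows Capg, Lcp1, Tagln2 and Rhoc, which are higher in each tumor-associated library. The bottom row shows the smooth muscle genes Acta2, Tagln, Myl9 and Tpm1, which are high in Control replicate 1, at 505 to 1261 FPKM.

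The muscle actins were listed at or near 0 in most libraries. Acta1, Actc1 and Actg2 were listed at 0 in all 9. Acta2, the actin of smooth muscle, had 505 FPKM in Control replicate 1 and 0 to 6.34 FPKM in the other 8 libraries. Tagln had 641 FPKM in Control replicate 1 and 0 to 2.15 elsewhere, Myl9 had 1261 and 0 to 33.7, and Tpm1 had 515 and 28.1 to 149.5. Myh11, the smooth muscle myosin, had 57.2 FPKM there, while Des, another marker of muscle, was listed at 0. In that library Tmsb4x, Tmsb10, Actb, Cfl1, Pfn1 and Arpc2 were at their lowest values of the control group and Myl6, Vim and Cnn2 at their highest. The part of the smooth muscle transcripts in the results above was not tested beyond the values without this library.

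The genes most like Tmsb4x were sought by the mean absolute difference of log2(FPKM + 1) profiles, each centred on its own mean over the 9 libraries. The nearest was Actr2, which encodes the Arp2 subunit of the Arp2/3 complex, at 0.132, against a median of 0.966 over the genes tested. It had 40.7, 58.7 and 81.8 FPKM in control, 90.0, 71.5 and 59.6 in GL261 and 39.3, 47.2 and 48.3 in B16 libraries, and so was low in Control replicate 1 and in the B16 libraries, as Tmsb4x was. Rpl7 (0.197), Uqcrq (0.207), Uqcrb (0.207) and Atp5g3 (0.210) followed, which encode a ribosomal protein and mitochondrial proteins. Of the other 9 genes Pfn1 was nearest, at rank 176, and Tmsb10 stood at rank 545. The pooled SD within groups was 0.31 for Tmsb4x against 1.07 for the median gene. Genes of low spread therefore lie nearer to Tmsb4x by this measure, and shared regulation was not tested.

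Promoters were searched for the CArG box, the site of serum response factor (SRF), which is known to drive actin genes. The search covered 250 bases before to 50 after each RefSeq start (GRCm38.p6), on both strands, and the motif reads the same on either. It occurred in 3 of the 12 promoters of the 9 genes with an entry (1 each of Actg1, Myl6 and Cnn2) and in 1.63% of all 32851 promoters, and Actb had no entry. Counted per gene, it occurred in 3 of 9 and in 1.81% of all 27025 genes. The stretches are printed because these 3 genes carry the same kind of box and differ in their values, with the box in capitals and coordinates from an exact match to mm9.
Cnn2, chr10:79451264-79451323, plus strand: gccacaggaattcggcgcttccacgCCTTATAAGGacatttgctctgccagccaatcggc
Myl6, chr10:127930081-127930140, minus strand: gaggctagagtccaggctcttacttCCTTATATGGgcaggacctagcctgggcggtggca
Actg1, chr11:120209865-120209924, minus strand: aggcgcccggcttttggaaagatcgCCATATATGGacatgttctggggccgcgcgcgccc
The box began 56, 50 and 90 bases before the RefSeq start, respectively. The stretches of Cnn2 and Actg1 lie upstream of their genes in GENCODE M1, and that of Myl6 lies in an intron of its gene, before a later start. Of the 3 genes Actg1 was called, and Myl6 and Cnn2 were not. A match of letters is a description of the sequence only.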

How the data were processed

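MLECs were profiled in 9 libraries. The authors aligned reads with TopHat2 (version 2.0.12) to mm9 and computed expression with Cufflinks (version 2.2.1), as the submitters' processing notes list, and the values were deposited by the authors as FPKM without read counts. The gene annotation given to Cufflinks is not given in the sources used here. 0 columns of the table were left unused.

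Groups were taken from the sample labels. The 10 genes, the lists of actin genes and the markers were chosen with earlier results of these data known. log2(FPKM + 1) was tested with limma 3.58.1 in R 4.3.3 (lmFit, eBayes with a trend) on 9955 genes, those that reached 1 FPKM in 3 or more libraries. P-values were adjusted by Benjamini and Hochberg over these genes, and 0.05 was the threshold. This stands in for the ROC power of the study. Differences on this scale understate changes of low genes. Tumor against control joined GL261 and B16. Comparisons of single tumors used all 9 libraries in 3 groups. A comparison of 3 against 3 cannot go below p = 0.1 in a permutation test. The script was tested on simulated data.

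The genes named are the 10, the 2 genes of each list with the largest difference among those called, the 5 genes nearest to Tmsb4x, and copies that lie over a row. Copies were sought with blastn 2.17.0. Alternatives were a pseudocount of 0.1, rescaling to a sum of 1000000, quantile normalization, other filters, the replicate number as a block, eBayes without a trend, aligned reads as a covariate, only the groups compared, and leaving out each library. Python 3.11.15 was used with pandas 2.3.3, numpy 2.4.6, matplotlib 3.10.9 and scipy 1.17.1.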

Additional observations from a re-analysis of the deposited data

Results flagged for a closer look

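Among 24 quantities (the 10 genes, the genes named with them and the ratios) over the 6 tumor-associated libraries, 4 had 1 library far from the others, judged by its gap to the nearest library over the whole range (Dixon's 95% critical value). Chance gives about 1 such group in 20, and these quantities share libraries.

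In B16 replicate 1, Pfn1 was at 10.23 on the log2(FPKM + 1) scale (others 10.83 to 11.11, gap 0.681 of the range) and Cnn2 at 2.74 (others 6.75 to 7.82, gap 0.789 of the range). In GL261 replicate 3, Arpc2 was at 8.00 (others 8.55 to 8.85, gap 0.647 of the range), and its ratio to Actb was 0.0339 (others 0.0621 to 0.0780, gap 0.639 of the range).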

How the results depend on the processing

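Depth differs between control and tumor-associated libraries, and single libraries moved the calls. The count of genes called in tumor against control (391) was 9 with aligned reads as a covariate, 254 without a filter and 245 to 444 when 1 library was left out (245 without GL261 replicate 2, 247 without B16 replicate 3, 259 without Control replicate 1 and 260 without GL261 replicate 1). For GL261 against control (347) it was 2, 218, 197 with only the groups compared, and 105 to 363 (111, 105 and 172 without GL261 replicates 1, 2 and 3). For B16 against control (210) it was 5, 135, 38 and 69 to 274 (85 and 69 without B16 replicates 2 and 3). Between GL261 and B16 (1) it was 6 with eBayes without a trend, 2 after quantile normalization and 1 to 4 with 1 library left out. Of the actin lists' genes (5), 0 were called with the covariate, 3 after rescaling to a sum, and 3 to 8 with 1 library left out (3 without B16 replicate 3, Control replicate 1 or GL261 replicate 1 or 2, and 8 without Control replicate 2). After quantile normalization, 230 genes were called higher and 157 lower in tumor against control, in place of 289 and 102, and 172 and 115 in GL261 against control, in place of 257 and 90. The causes were not tested.

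With the replicate block, 303 genes were called in tumor against control, 230 in GL261 and 146 in B16 against control, and 3 of the lists' genes. Deviations of same-numbered libraries correlated between -0.0334 and 0.0443, and those of pairs with unlike numbers between -0.0302 and 0.0522. What the replicate number stands for is not given in the sources used here. A small effect shared by same-numbered libraries cannot be told from these values. The block called 2 of the 9 genes.

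The Actg1 to Actb ratio differed by 0.12 to 0.34 under its alternatives (exact permutation p from 0.0893 to 0.607). Actb, Actg1 and Tmsb10 stayed positive against control in 18 of 18 alternatives and fell short of the threshold in 6, 5 and 14. Without a trend in eBayes, 0 of the 9 genes were called, and with the covariate 0 were.

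Differences of the 9 tested genes that changed sign, none of which had passed the threshold, were as follows, where rescaling over coding genes without the Ccl21 copies was chosen after seeing the data. Tmsb4x, which was not tested, changed sign in GL261 against control with the covariate (-0.47) and with rescaling over coding genes (-0.012), and in B16 against control with quantile normalization (0.20). With the covariate, tumor against control gave -0.038 for Pfn1 and -2.59 for Cnn2, GL261 against control gave -0.12 for Tmsb10, -0.0067 for Pfn1, -0.34 for Arpc2, -0.36 for Myl6, -0.11 for Vim and -4.72 for Cnn2, B16 against control gave -0.031 for Pfn1, and GL261 against B16 gave -0.39 for Tmsb10, -0.021 for Actg1 and -1.63 for Cnn2. With quantile normalization, tumor against control gave -0.20 for Pfn1 and -0.0052 for Myl6, GL261 against control gave -0.20 for Pfn1, -0.0033 for Arpc2, -0.16 for Myl6 and -0.028 for Vim, B16 against control gave -0.20 for Pfn1, and GL261 against B16 gave -0.47 for Tmsb10, -0.36 for Actb and -0.0047 for Pfn1. With rescaling over coding genes, tumor against control gave -0.069 for Pfn1 and -0.024 for Cnn2, GL261 against control gave -0.079 for Pfn1, -0.15 for Arpc2 and -0.10 for Vim, B16 against control gave -0.058 for Pfn1, and GL261 against B16 gave -0.18 for Tmsb10 and -0.021 for Pfn1. Rescaling to a sum gave -0.049 for Arpc2 in GL261 against control and -0.14 for Tmsb10 in GL261 against B16. With 1 library left out, B16 against control ran from -0.016 to 0.42 for Pfn1 and from -1.11 to 1.43 for Cnn2. GL261 against B16 ran from -0.16 to 0.21 for Tmsb10, -0.20 to 0.13 for Cfl1, -0.093 to 0.33 for Pfn1, -0.27 to 0.14 for Myl6 and -0.65 to 1.89 for Cnn2.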
